A study of Mus musculus with 6 samples.

Results

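Interferon-stimulated genes are the genes that cells switch on when an interferon binds its receptor. The 50 described here were picked by symbol, without a threshold on their values, and all 50 have a row among the 24016 genes of the table. They encode the transcription factors, sensors, nucleotide-binding GTPases and other effectors of the interferon response. In 47 of them the mean over the 6 libraries reached 10 normalized counts, the unit used throughout, which is the reads on a gene divided by 1 size factor per library. *Rsad2*, *Cmpk2* and *Oasl1* stayed below it.

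The RNA came from a single subclone of MC3T3-E1, a mouse preosteoblast line, with the genotype given as WT for all libraries. All cultures were differentiated over 6 days with β-glycerophosphate (10 mM) and ascorbic acid (50 µg/ml), and 10 nM calcitriol, the active form of vitamin D, is listed in the labels of all 6 libraries. One group received vehicle (Vehicle, n = 3). The other received corticosterone, a glucocorticoid hormone, at 100 nM for 24 h (Corticosterone, n = 3). The labels give 2 passage ranges that differ from each other, each for all libraries alike and neither by library, and the study's methods call the cultures of a group biological replicates. Between 16020401 and 25638645 reads per library fell on genes, which puts a gene with 3 reads at 2.32 to 3.84 normalized counts.

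Type I interferons act through the receptor chains IFNAR1 and IFNAR2, the kinases JAK1 and TYK2, and a complex that includes STAT2 and IRF9 and binds a DNA element called ISRE. Interferon gamma acts through IFNGR1, IFNGR2, JAK1 and JAK2 on another element, GAS, and induces IRF1 and many GTPases of the GBP and IRG families. In bone, interferons are best known as brakes on osteoclast formation, while osteoblasts and their precursors carry both receptors.

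Corticosterone against Vehicle gave lower levels of 14 of the 50 genes (28.0%) and higher levels of 5 (10.0%) at an adjusted p under 0.05 (limma over all 24016 genes). Over all genes, 8.64% were lower and 8.95% higher by the same rule. The largest falls were those of the guanylate-binding proteins *Gbp10*, *Gbp4* and *Gbp6*, the only members that were lower with a log2 fold change beyond -1 (1.51% of all genes), and only *Oas3* was higher with one beyond 1 (1.47% of all genes). The median log2 fold change of the 50 was -0.20, beside -0.01 for all genes, and 37 of the 50 were below 0. All Corticosterone values lay below all Vehicle values in 14 members, against 14.9% of all genes, and above them in 5, against 14.7%. These 14 are not the same as the 14 called lower. *Ifit3*, *Isg15* and *Irgm1* were called with overlapping groups, while *Gbp2*, *Parp9* and *Samd9l* separated without a call.

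**Figure D1:**
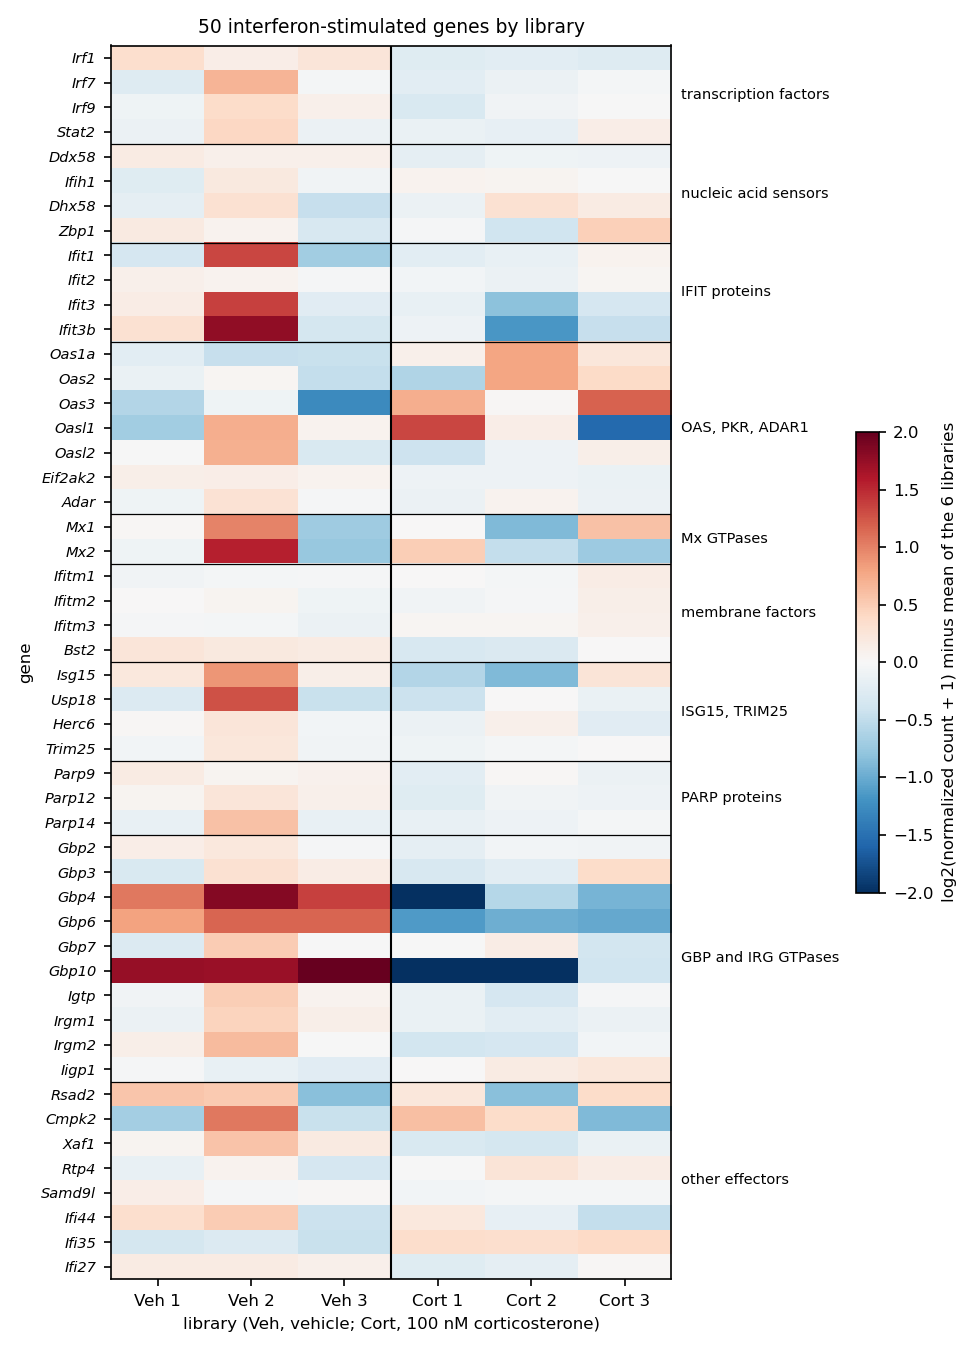
Level of each of the 50 interferon-stimulated genes (rows, grouped by role) in the 6 libraries (columns), as log2(normalized count + 1) minus the gene's mean over the 6 libraries, with red higher, blue lower and the colour scale ending at -2 and 2. *Gbp4*, *Gbp6* and *Gbp10* are red in all 3 Vehicle columns and blue in all 3 Corticosterone columns, whereas *Ifit1*, *Ifit3*, *Ifit3b*, *Usp18*, *Mx1* and *Mx2* are darkest red in Veh 2 alone.

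One Vehicle library stood apart in these genes. Vehicle replicate 2 had the highest value of the 3 Vehicle libraries in 36 of 50 members (72.0%), against 34.7% of all genes. Among the 47 members with a mean of at least 10, its log2 value exceeded the mean of the other Vehicle libraries by a median of 0.34, while the median over the 13880 genes with that mean was -0.002. The excess was over 0.5 in 18 of the 47 (38.3%) and in 4.06% of the 13880 genes. Vehicle replicate 1 was the highest of the group in 10 of the 47, against 34.3% of those genes, and Vehicle replicate 3 in 3, against 29.5%. Among the 13880 genes, the 50 with the largest excess in Vehicle replicate 2 included 6 members (12.0% of the 50, 12.8% of the 47). These were *Mx2*, *Ifit1*, *Ifit3b*, *Usp18*, *Ifit3* and *Mx1*, and 3 of them were among the first 10. Within the Corticosterone group replicate 3 was highest in 26 of the 47 (55.3%, against 38.0% of genes), with a smaller median excess of 0.12. Its excess was over 0.5 in 7 of the 47 (14.9%, against 3.0% of genes) and under -0.5 in 1. Corticosterone replicate 2 was under -0.5 in 7 of the 47, against 3.36% of genes, and over 0.5 in 3.

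**Figure D2:**
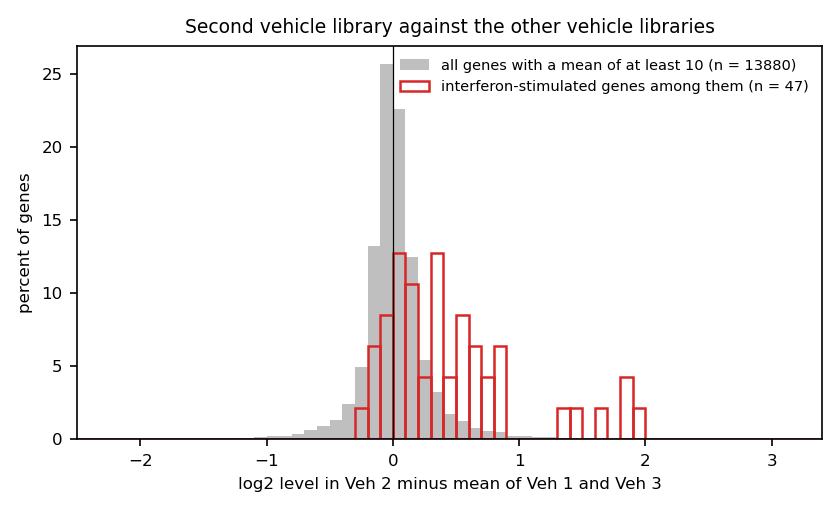
Distribution of the log2 level in Vehicle replicate 2 minus the mean log2 level of Vehicle replicates 1 and 3, as percent of genes per bin of 0.1, for all 13880 genes with a mean of at least 10 (grey; 4 lie beyond the axis) and for the 47 interferon-stimulated genes among them (red outline). The grey bars centre on 0, and 18 of the 47 lie above 0.5.

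Without Vehicle replicate 2 the median log2 fold change of the members was 0.02, and 23 of 50 were below 0. The sign of 14 members differed between the estimates with and without that library. With any other library left out the median stayed between -0.26 and -0.18. The calls were compared among the 13880 genes with a mean of at least 10, because the fit over all genes called only 4 to 9 members lower whichever library was left out (4 lower and 1 higher without Vehicle replicate 2, beside 5.24% and 6.18% of genes). In that filtered fit 14 of 47 members were lower (29.8%) and 5 higher (10.6%) with all 6 libraries, beside 15.3% and 15.8% of its genes. Without Vehicle replicate 2 it called 10 lower (21.3%) and the same 5 higher, beside 14.7% and 15.6%. *Ifit3*, *Isg15*, *Irgm1* and *Irgm2* were the members whose call was lost. In the paragraphs below, an adjusted p without a library is from the filtered fit unless stated otherwise. By edgeR on the recovered reads, 15 members were lower and 5 higher with all libraries, beside 15.2% and 16.0% of its genes, and 10 and 5 without Vehicle replicate 2, beside 15.0% and 15.8%. Of the 19 members called with all libraries, 12 stayed called in this fit whichever single library was left out, 10 lower (*Irf1*, *Ddx58*, *Eif2ak2*, *Bst2*, *Parp12*, *Gbp4*, *Gbp6*, *Gbp10*, *Xaf1* and *Ifi27*) and 2 higher (*Iigp1* and *Ifi35*).

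**Figure D3:**
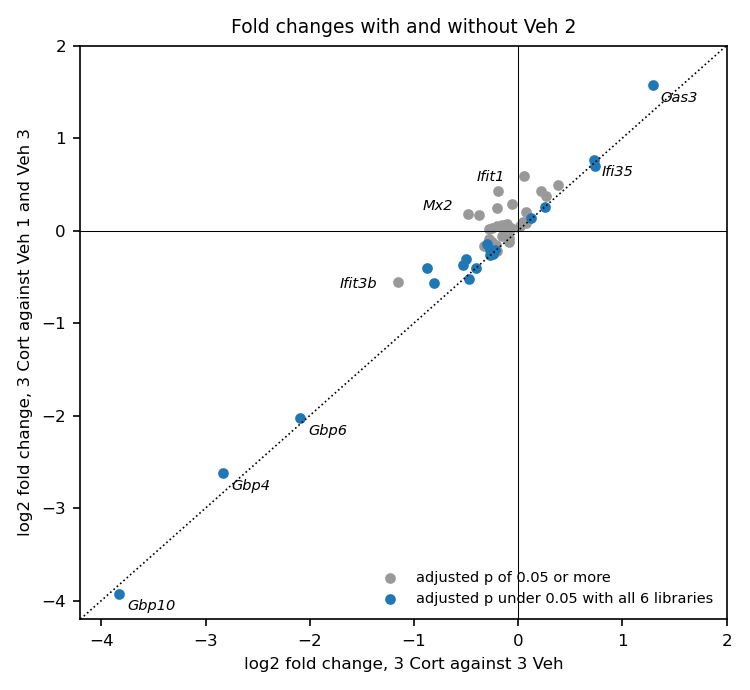
Log2 fold change (Corticosterone minus Vehicle, on log2(normalized count + 1)) of each of the 50 members with all 6 libraries (horizontal axis) and without Vehicle replicate 2 (vertical axis), with the dotted line marking equal values. The points of *Gbp4*, *Gbp6*, *Gbp10*, *Ifi35* and *Oas3* lie near the line in both estimates, while *Ifit1* and *Mx2* lie below 0 on the horizontal and above 0 on the vertical axis.

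The IFIT proteins bind viral RNA and block its translation, and 3 of the 4 members were highest in Vehicle replicate 2. *Ifit1* was at 76.2, 245 and 59.0 in Vehicle replicates 1 to 3 and at 83.5, 87.3 and 101 in Corticosterone. Vehicle replicate 2 was 3.63 times the mean of the other Vehicle libraries, both of which lay below all 3 Corticosterone values. The log2 fold change was -0.20 ± 0.29 (SE, adjusted p = 0.74) with all libraries and 0.42 without Vehicle replicate 2. *Ifit3* (chromosome 19, 34583531 to 34588731, plus strand) was at 90.0, 211 and 69.3 in Vehicle and at 72.8, 45.3 and 64.0 in Corticosterone. Its groups overlapped, and the call of a fall of 0.87 ± 0.27 on the log2 scale (adjusted p = 0.021) was lost without Vehicle replicate 2 (-0.40, adjusted p = 0.22), without Corticosterone replicate 2 (-0.68, adjusted p = 0.17) and without Corticosterone replicate 3 (-0.92, adjusted p = 0.079). *Ifit3b*, its neighbour on the same chromosome, was at 20.3, 57.9 and 12.4 in Vehicle and at 15.0, 6.63 and 11.5 in Corticosterone (-1.15, adjusted p = 0.092). Transcripts of other genes, in the main each other's, hold 61.8% of the 31-base words of *Ifit3* and 55.3% of those of *Ifit3b*, so the reads of either are uncertain singly. Summed, they were at 110, 269 and 81.7 in Vehicle and at 87.8, 51.9 and 75.5 in Corticosterone, a log2 difference of -0.93 with all libraries and -0.43 without Vehicle replicate 2 that did not separate the groups (exact permutation p = 0.20, two-sided, n = 3 per group). *Ifit2*, at 297 to 324 in Vehicle and 281 to 311 in Corticosterone, did not pass the test (-0.09), and Vehicle replicate 2 was not its highest value.

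ISG15 is a ubiquitin-like protein that is attached to other proteins and taken off again by USP18, which also restrains signalling at IFNAR2. *Isg15* (chromosome 4, 156199424 to 156200818, minus strand) was at 103, 164 and 96.2 in Vehicle and at 58.9, 47.5 and 106 in Corticosterone. Its fall of 0.81 ± 0.23 on the log2 scale (adjusted p = 0.013) came from overlapping groups. The call was lost without Vehicle replicate 2 (-0.57, adjusted p = 0.12), without Corticosterone replicate 1 (-0.72, adjusted p = 0.086) and without Corticosterone replicate 2 (-0.57, adjusted p = 0.13). *Usp18* was at 40.5, 121 and 36.2 in Vehicle and at 36.4, 49.7 and 44.8 in Corticosterone. Vehicle replicate 2 again stood alone, 3.16 times the mean of the other Vehicle libraries, and without it the log2 difference went from -0.37 to 0.17, neither past the threshold. *Herc6*, the ISG15 ligase of mice, and *Trim25*, the ubiquitin ligase that activates RIG-I, did not pass the test (-0.15 and -0.07). *Trim25* was at 893, 1084 and 884 in Vehicle and at 876, 905 and 930 in Corticosterone, with overlapping groups.

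The Mx GTPases, which trap viral nucleocapsids, were low and had the same form. *Mx1* was at 19.5, 39.4 and 11.4 in Vehicle and at 19.3, 9.94 and 29.4 in Corticosterone. *Mx2* was at 10.5, 34.7 and 6.21 in Vehicle and at 16.1, 7.73 and 6.40 in Corticosterone, with 4.15 times as much in Vehicle replicate 2 as in the mean of the others. Neither passed the test (-0.20 and -0.48), and both estimates were above 0 without that library (0.25 and 0.18). For *Mx1* the estimate was also above 0 without Corticosterone replicate 2 (0.19).

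**Figure D4:**
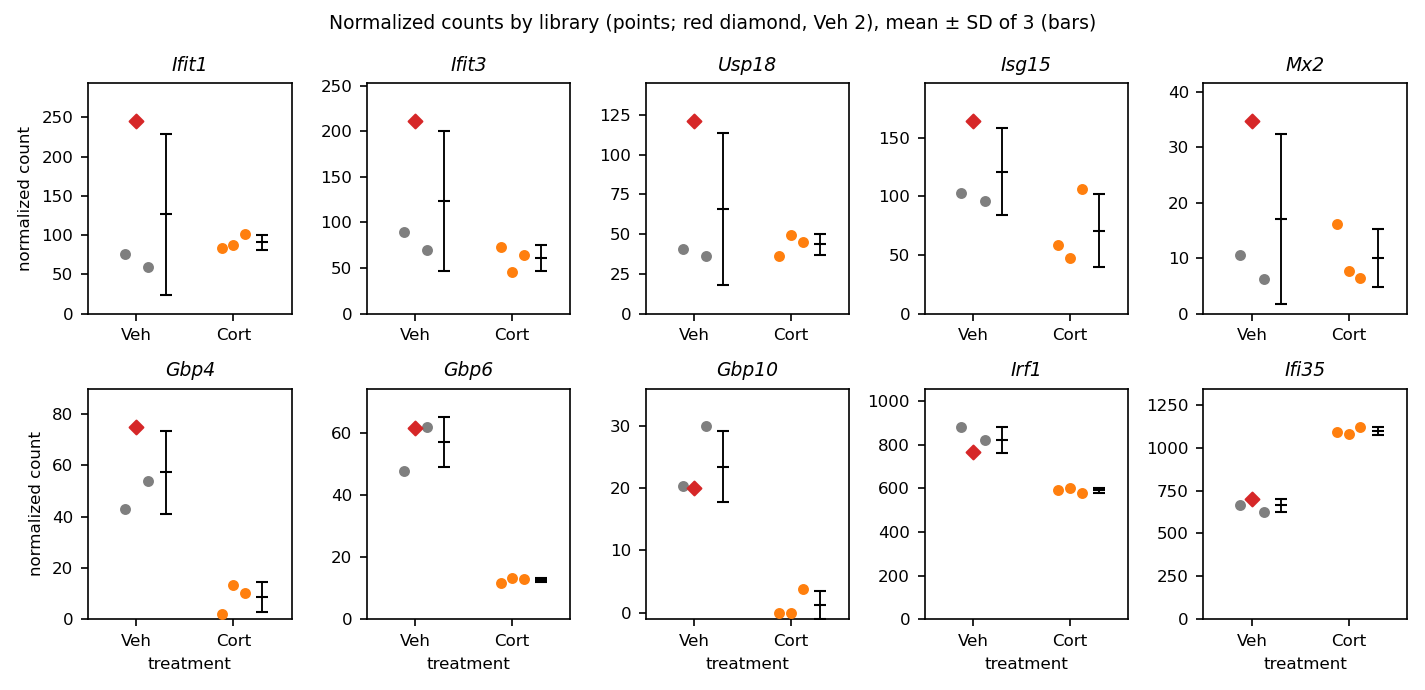
Normalized counts of 10 members in each library (points) with the mean ± SD of the 3 libraries of each treatment (bars), Vehicle replicate 2 drawn as a red diamond, each panel on its own linear axis. The diamond stands above all other points for *Ifit1*, *Ifit3*, *Usp18*, *Isg15* and *Mx2*, and lies among the Vehicle points, well away from the Corticosterone points, for *Gbp6*, *Gbp10*, *Irf1* and *Ifi35*.

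The guanylate-binding proteins attack the membranes of intracellular pathogens, and their members split by chromosome. *Gbp4* (chromosome 5, 105115767 to 105139586, minus strand) was at 43.0, 74.9 and 53.8 in Vehicle and at 2.14, 13.3 and 10.2 in Corticosterone. *Gbp6* (chromosome 5, 105270702 to 105293698, minus strand) was at 47.8, 61.7 and 62.1 in Vehicle and at 11.8, 13.3 and 12.8 in Corticosterone. *Gbp10* (chromosome 5, 105215699 to 105239533, minus strand) was at 20.3, 20.1 and 30.0 in Vehicle and at 0, 0 and 3.84 in Corticosterone. All 3 Corticosterone libraries lay below all 3 Vehicle libraries for each gene, a separation with the smallest p that 3 against 3 allow (exact permutation p = 0.10, two-sided). The log2 fold changes were -2.84 ± 0.44 for *Gbp4* (adjusted p = 1.7e-05), -2.09 ± 0.30 for *Gbp6* (adjusted p = 4.7e-06) and -3.83 ± 0.60 for *Gbp10* (adjusted p = 2.2e-05). Without Vehicle replicate 2 they were -2.63, -2.03 and -3.92, with adjusted p of 0.0011, 1.1e-04 and 8.6e-04 in the filtered fit. *Gbp10* rests on 80 reads in Vehicle and 3 in Corticosterone. After scaling for the size factors this is a ratio of 20.0 with a 95% interval of 6.6 to 99.0 (exact binomial, counting error only).

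Reads of these genes are shared: 89.8% of the 31-base words of *Gbp10*, 74.3% of those of *Gbp6* and 14.9% of those of *Gbp4* also lie in transcripts of other genes. Summed, the 3 genes were at 111, 157 and 146 in Vehicle and at 13.9, 26.5 and 26.9 in Corticosterone, 6.15 times lower. The sum does not cover all of the shared sequence. *Gm43302*, which is not in it, holds 67.8% of the words of *Gbp6* and 76.7% of those of *Gbp10*. Their relatives *Gbp8*, *Gbp9* and *Gbp11* lie in the same cluster and were looked at after these values were seen. In the fit over all genes, the 6 genes of the chromosome 5 cluster were all lower, with log2 fold changes of -3.83 to -1.76. *Gbp9* was at 195, 291 and 198 in Vehicle and at 54.6, 68.5 and 74.2 in Corticosterone (-1.76 ± 0.16, adjusted p = 3.0e-09), and *Gbp8* fell by 1.86 on the log2 scale (adjusted p = 1.9e-05). *Gbp11* had 11, 13 and 6 reads in Vehicle and 1, 0 and 1 in Corticosterone (-2.46, adjusted p = 0.003). These were too few for the filtered fit, edgeR or DESeq2. Without Vehicle replicate 2 the fit over all genes no longer called *Gbp11* (adjusted p = 0.054), *Gbp10* (0.056) or *Gbp4* (0.10). It still called *Gbp6* (0.011), *Gbp8* (0.023) and *Gbp9* (0.0079). The annotations of *Gbp4*, *Gbp8* and *Gbp9* overlap on 1 strand, so reads in their shared part cannot be assigned to 1 of them. Of the 4 relatives on chromosome 3, *Gbp2* was at 474, 499 and 426 in Vehicle and at 381, 415 and 411 in Corticosterone (-0.21, adjusted p = 0.072). *Gbp3*, *Gbp5* and *Gbp7* had overlapping groups, and none of the 4 passed the test (-0.46 to -0.09).

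**Figure D5:**
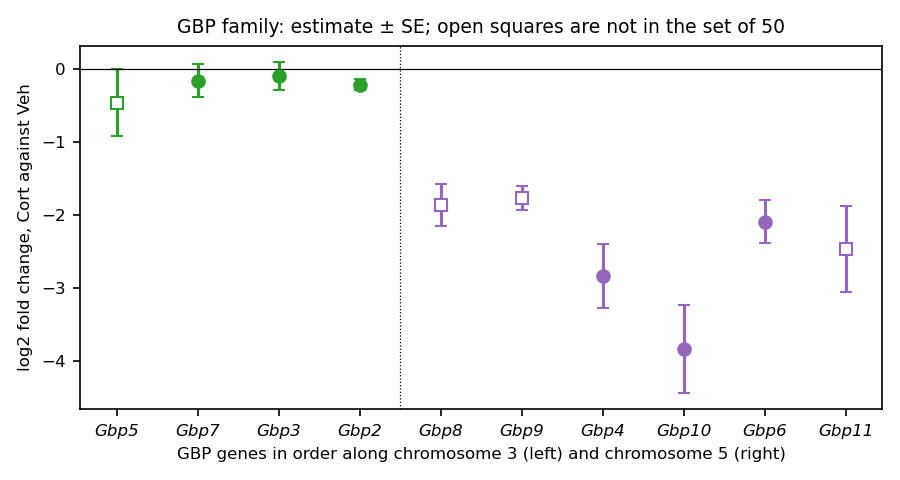
Log2 fold change (Corticosterone minus Vehicle) ± SE from the limma fit over all genes for the 10 GBP genes, in order along chromosome 3 (green) and chromosome 5 (purple), with filled circles for the set of 50 and open squares for the others. The 4 genes of chromosome 3 lie between -0.46 and -0.09 and the 6 of chromosome 5 between -3.83 and -1.76.

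The IRG GTPases, which act on the vacuoles of parasites and bacteria, moved far less and not all the same way. *Irgm2* was at 258, 370 and 238 in Vehicle and at 185, 189 and 230 in Corticosterone, and *Irgm1* at 568, 837 and 665 and at 563, 530 and 569. The groups of *Irgm2* did not overlap and those of *Irgm1* did. Both were lower (-0.50, adjusted p = 0.0065, and -0.30, adjusted p = 0.023), and both calls were lost without Vehicle replicate 2 (-0.30, adjusted p = 0.077, and -0.15, adjusted p = 0.18). *Irgm2* also lost its call without Corticosterone replicate 1 (-0.44, adjusted p = 0.062) or replicate 2 (-0.45, adjusted p = 0.062). *Irgm1* kept it in 1 of 6 such fits, the one without Vehicle replicate 1 (-0.43), with adjusted p of 0.072 without Vehicle replicate 3 and 0.075, 0.13 and 0.073 without Corticosterone replicates 1 to 3. *Igtp*, whose annotation overlaps that of *Irgm2* on the same strand, did not pass (-0.33, adjusted p = 0.14). *Iigp1* was higher, from 1334, 1219 and 1154 to 1354, 1508 and 1575 (0.26 ± 0.06, adjusted p = 0.0031; 0.25 without Vehicle replicate 2). Without that library *Iigp1* was called in the filtered fit (adjusted p = 0.011) but not over all genes (adjusted p = 0.19).

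Of the 4 transcription factors, *Irf1*, the factor that interferon gamma induces through GAS, fell. *Irf1* (chromosome 11, 53770014 to 53778374, plus strand) was at 882, 765 and 823 in Vehicle and at 591, 604 and 580 in Corticosterone. Vehicle replicate 2 was its lowest Vehicle value, and every Vehicle library was above every Corticosterone library. The log2 fold change was -0.47 ± 0.07 (adjusted p = 4.0e-06) with all libraries and -0.53 without Vehicle replicate 2 (adjusted p = 9.0e-06). *Irf7*, which amplifies type I interferon production, was at 56.8, 110 and 66.2 in Vehicle and at 58.9, 63.0 and 66.5 in Corticosterone, again with its high value in Vehicle replicate 2 (-0.25, adjusted p = 0.54, and 0.03 without it). *Stat2* and *Irf9* did not pass either (-0.11 and -0.25).

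Among the sensors of foreign nucleic acid, *Ddx58*, which encodes RIG-I, was lower. *Ddx58* was at 1447, 1387 and 1377 in Vehicle and at 1132, 1214 and 1205 in Corticosterone (-0.25 ± 0.05, adjusted p = 0.0013; -0.25 without Vehicle replicate 2). *Ifih1*, which encodes MDA5, its relative *Dhx58* and the Z-nucleic acid sensor *Zbp1* had overlapping groups and did not pass (0.04 to 0.22).

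The OAS enzymes, which make the activator of RNase L, included 2 of the 5 rises. *Oas3* was at 10.5, 15.4 and 6.21 in Vehicle and at 27.8, 16.6 and 38.4 in Corticosterone. *Oas1a* was at 40.5, 34.0 and 34.1 in Vehicle and at 50.3, 81.7 and 55.0 in Corticosterone. The groups did not overlap in either gene, although the highest Vehicle value of *Oas3* lay just under its lowest Corticosterone value. The log2 fold changes were 1.29 ± 0.41 (adjusted p = 0.028) for *Oas3* and 0.74 ± 0.24 (adjusted p = 0.030) for *Oas1a*. Without Vehicle replicate 2 they were 1.57 and 0.70, with adjusted p of 0.0092 and 0.047 in the filtered fit. Over all genes both calls were lost without that library (adjusted p = 0.12 and 0.20). In the filtered fit both calls were lost when certain other libraries were left out, with 2 libraries remaining in that group. *Oas3* lost its call there without Vehicle replicate 3 (0.98, adjusted p = 0.089), Corticosterone replicate 1 (1.25, adjusted p = 0.063) or Corticosterone replicate 3 (1.02, adjusted p = 0.11). *Oas1a* lost its call without Vehicle replicate 3 (0.70, adjusted p = 0.058) or Corticosterone replicate 2 (0.53, adjusted p = 0.11). Its estimate was 0.70 without either Vehicle replicate 2 or Vehicle replicate 3, on different sides of the threshold. *Oas1a* shares 68.8% of its 31-base words with other genes, mostly *Oas1g*, and is uncertain singly. *Oas2* (0.38), *Oasl1* (-0.06) and *Oasl2* (-0.28) did not pass, nor did *Adar* (-0.11), which encodes an RNA editor. *Eif2ak2*, which encodes the kinase PKR, was at 1228, 1241 and 1190 in Vehicle and at 1054, 1059 and 1030 in Corticosterone (-0.22 ± 0.05, adjusted p = 0.0040; -0.21 without Vehicle replicate 2).

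The membrane factors held the most abundant members. Per kilobase of exon, *Ifitm3* stood at 9931 normalized counts and *Ifitm2* at 4158, followed by *Ifi27* at 794 and *Ifi35* at 510, while *Rsad2* was lowest at 0.21. The IFITM proteins block the fusion of viruses with cell membranes. *Ifitm3* was at 6586, 6521 and 6228 in Vehicle and at 6908, 6910 and 7248 in Corticosterone. This rise was the smallest among the called members (0.12 ± 0.04, adjusted p = 0.037). In the filtered fit it held without Vehicle replicate 2 (0.13, adjusted p = 0.020), though not over all genes (adjusted p = 0.11). The filtered fit lost it without Vehicle replicate 3 (0.10, adjusted p = 0.13), Corticosterone replicate 1 (0.14, adjusted p = 0.054) or Corticosterone replicate 3 (0.10, adjusted p = 0.10). *Ifitm2* was at 2735, 2823 and 2570 in Vehicle and at 2595, 2664 and 2954 in Corticosterone. Its groups overlapped, as did those of *Ifitm1*, at 359 to 371 and 368 to 416. *Bst2*, which encodes tetherin and holds budding viruses at the cell surface, was at 292, 282 and 275 in Vehicle and at 197, 200 and 247 in Corticosterone (-0.41 ± 0.10, adjusted p = 0.0053; -0.41 without Vehicle replicate 2). Without that library *Bst2* was called in the filtered fit (adjusted p = 0.016) but not over all genes (adjusted p = 0.12).

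Of the remaining effectors, *Ifi35*, which encodes an interferon-induced leucine zipper protein, had the lowest adjusted p of the 50. *Ifi35* (chromosome 11, 101448407 to 101458698, plus strand) was at 666, 702 and 625 in Vehicle and at 1092, 1079 and 1121 in Corticosterone. All Corticosterone libraries lay above all Vehicle libraries by far more than the spread within either group (0.72 ± 0.06, adjusted p = 6.0e-10; 0.77 without Vehicle replicate 2). *Xaf1*, which encodes a partner of the apoptosis inhibitor XIAP, was at 200, 287 and 218 in Vehicle and at 156, 151 and 175 in Corticosterone. Vehicle replicate 2 was its highest value, and the fall went from -0.53 (adjusted p = 0.0027) to -0.38 without it. The latter was called in the filtered fit (adjusted p = 0.033) but not over all genes (adjusted p = 0.077). *Ifi27* was at 1291, 1295 and 1237 in Vehicle and at 975, 1018 and 1176 in Corticosterone (-0.28, adjusted p = 0.0019; -0.26 without Vehicle replicate 2). *Parp12*, which encodes an ADP-ribosyltransferase, was at 1030, 1179 and 1065 in Vehicle and at 839, 947 and 929 in Corticosterone (-0.27, adjusted p = 0.0027; -0.21 without Vehicle replicate 2). Without that library the filtered fit called *Ifi27* (adjusted p = 0.0084) and *Parp12* (0.017). The fit over all genes called neither (0.16 and 0.11). In *Xaf1*, *Ifi27* and *Parp12* the groups did not overlap. *Parp9* (-0.20) and *Parp14* (-0.20) did not pass, and neither did *Rtp4* (0.27), *Samd9l* (-0.09) and *Ifi44* (-0.28). *Rsad2*, which encodes viperin, was at 0 to 1.62 and its neighbour *Cmpk2* at 1.28 to 7.72 over the 6 libraries, too few reads to show a difference at this depth.

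The promoters of these genes were read for the elements named above. A RefSeq promoter (GRCm38.p6, 250 bases before the start) was at hand for 36 of the 50. *Gbp4*, *Gbp6*, *Gbp10*, *Usp18*, *Mx1* and *Mx2* were among those without one, so the counts and medians below leave them out. An ISRE match, GAAA followed by any 2 bases and GAAA again, on either strand, was found in 16 of the 36 (44.4%), against 3.46% of 27025 genes with a promoter. A GAS match, TTCNNNGAA, which reads the same on both strands, was found in 8 of the 36 (22.2%), against 8.13%, and ACANNNTGT, a loose form of the glucocorticoid response element that also reads the same on both strands, in 1 of the 36 (2.78%), against 6.76%. The 16 members with an ISRE match had a median excess of 0.56 (log2) in Vehicle replicate 2 and the 20 without one 0.27. The 8 with a GAS match had a median excess of 0.04 and the 28 without one 0.41. A match describes the letters and not a site in use. *Isg15* and *Ifit3* are shown because they were high in Vehicle replicate 2, *Bst2* because it holds an ISRE match and was not (it also holds a GAS match, left unmarked), and *Irf1* because it fell without an excess in that library and holds a GAS match. Capitals mark the matches, for ISRE in the first 3 lines and for GAS in the last, each line running 5′ to 3′ on the gene's strand and ending at the base before the start (chr4:156200819-156201068, minus; chr19:34583279-34583528, plus; chr8:71537473-71537722, minus; chr11:53769764-53770013, plus).
Isg15: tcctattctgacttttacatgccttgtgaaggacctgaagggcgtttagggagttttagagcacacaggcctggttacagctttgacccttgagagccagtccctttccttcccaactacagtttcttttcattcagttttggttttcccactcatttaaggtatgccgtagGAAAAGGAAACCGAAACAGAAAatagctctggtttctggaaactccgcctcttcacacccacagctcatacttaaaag
Ifit3: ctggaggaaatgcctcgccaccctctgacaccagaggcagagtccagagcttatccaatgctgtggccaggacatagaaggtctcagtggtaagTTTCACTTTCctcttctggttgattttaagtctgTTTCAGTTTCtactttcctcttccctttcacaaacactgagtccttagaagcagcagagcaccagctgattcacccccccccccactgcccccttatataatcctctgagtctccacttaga
Bst2: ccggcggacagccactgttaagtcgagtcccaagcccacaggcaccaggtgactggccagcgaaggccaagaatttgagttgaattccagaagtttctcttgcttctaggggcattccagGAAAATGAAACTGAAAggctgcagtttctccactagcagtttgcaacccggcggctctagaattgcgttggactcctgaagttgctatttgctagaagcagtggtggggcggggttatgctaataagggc
Irf1: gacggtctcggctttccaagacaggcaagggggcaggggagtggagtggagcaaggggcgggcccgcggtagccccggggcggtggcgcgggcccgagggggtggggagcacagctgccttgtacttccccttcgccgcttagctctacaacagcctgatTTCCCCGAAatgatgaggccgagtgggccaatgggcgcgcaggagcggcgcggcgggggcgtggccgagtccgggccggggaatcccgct

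The capitals of *Isg15* hold 3 overlapping matches and those of *Bst2* 2, whereas the 2 of *Ifit3* stand apart and lie on the opposite strand. Measured from the start, the *Isg15* matches lie 57 to 78 bases upstream, those of *Ifit3* 113 to 156, those of *Bst2* 115 to 130 and that of *Irf1* 82 to 90.

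Of 48 further genes of the interferon pathway, 32 had a row in the table, and 3 of these were lower and 4 higher, near the 8.64% and 8.95% of all genes. The 16 without a row are *Irf8* and 15 interferon genes, among them *Ifnb1* and *Ifng*. The 3 interferon genes with a row, *Ifna1*, *Ifna13* and *Ifnz*, had at most 3 reads in any library. None of the 6 receptor chains passed the test. *Ifnar1* (-0.12), *Ifnar2* (0.18), *Ifngr1* (-0.05) and *Ifngr2* (-0.02) were all at 496 to 1198 in every library. Of the kinases, *Jak1* was lower (-0.18, adjusted p = 0.0088) and *Jak2* higher (0.22, adjusted p = 0.0065). The suppressors of signalling *Socs1* (-0.42, adjusted p = 0.017) and *Socs3* (-0.35, adjusted p = 0.0026) were lower, the former not without Vehicle replicate 3 (-0.40, adjusted p = 0.059), Corticosterone replicate 1 (-0.40, adjusted p = 0.056) or Corticosterone replicate 3 (-0.33, adjusted p = 0.079). The repressor *Irf2* (0.36, adjusted p = 9.3e-04) and the adaptors *Myd88* (0.45, adjusted p = 4.5e-04) and *Ticam1* (0.64, adjusted p = 1.0e-09) were higher. These 7 calls also stood in the filtered fit without Vehicle replicate 2, where *Tyk2*, a kinase of the type I receptor, joined those higher (0.16, adjusted p = 0.038). The fit over all genes without that library kept *Irf2*, *Myd88* and *Ticam1*. It lost *Jak1* (adjusted p = 0.14), *Jak2* (0.11), *Socs1* (0.17) and *Socs3* (0.15).

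The treatment was visible in 5 of 5 glucocorticoid-responsive genes, *Tsc22d3*, *Fkbp5*, *Sgk1*, *Per1* and *Klf9*, which rose by 1.49 to 2.75 on the log2 scale. The 8 osteoblast markers had a sum of 627402 to 734724 per library, although *Phex* was only at 0.772 to 9.94. With corticosterone 6 of the 8 were lower. One of the 6, *Col1a1*, makes up nearly all of that sum and was called over all genes (-0.15, adjusted p = 0.041) but not in the filtered fit with all libraries (0.079) or without Vehicle replicate 2 (0.064), while edgeR (0.0042) and DESeq2 (0.00015) called it. Since a leukocyte could also supply interferon-stimulated transcripts, 7 leukocyte markers were looked up. *Ptprc*, *Adgre1* and *Itgam* had no row. The other 4 summed to 340 to 388 in Vehicle, with 385 in replicate 2 and 388 in replicate 1, and to 296 to 340 in Corticosterone, where *Lyz2* was lower (-0.37, adjusted p = 0.018), a call lost without Vehicle replicate 1 (adjusted p = 0.055), Corticosterone replicate 1 (0.066) or Corticosterone replicate 2 (0.055). The sum of 2 endothelial markers ranged from 0 to 12.8, and 2 further ones had no row. Of 4 adipocyte markers 2 had no row, and *Fabp4* was higher (3.05, adjusted p = 4.4e-09). The part of other cells in the differences above was not tested, and in bulk RNA fewer cells of a kind and less RNA per cell cannot be told apart.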

How the data were processed

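RNA-seq libraries of 3 Vehicle and 3 Corticosterone cultures were analysed. The authors deposited 1 non-negative signal per gene and library, named FPKM, in a single table. In each library the smallest value fits a whole number of times into every other (tolerance 0.01 reads), whatever the gene's length, so they are read counts divided by a size factor, here called normalized counts. The study's methods name commercial Illumina sequencing and DESeq2, and the submitters' processing notes name mm10. The aligner, counting program and strand setting are not given in the sources used here.

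The design had assumed FPKM values and was kept. Log2(value + 1) of all 24016 genes was fitted with limma 3.58.1 (eBayes with a variance trend, R 4.3.3), with no filter, two-sided, with Benjamini-Hochberg adjustment over all genes and a threshold of 0.05. Fold changes are Corticosterone minus Vehicle on that scale, which understates changes of low genes. The effect of single libraries was read from the same fit on genes with a mean of at least 10. Recovered reads were tested with edgeR 4.0.16 (quasi-likelihood) and DESeq2 1.42.0. In simulated counts of 24016 genes with 200 changed at a dispersion of 0.0031, limma recovered 155 at a log2 fold change of 1 with 21 false calls, limma with a mean of at least 10 recovered 181 with 9, edgeR 184 with 9 and DESeq2 169 with 1. At a log2 fold change of 2 these were 184 with 37, 193 with 8, 196 with 10 and 192 with 7. Every simulated gene had the same dispersion, and the changed genes all had a mean of at least 10. No simulated library deviated as Vehicle replicate 2 did, so these counts do not give the error rates in the present data.

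The members and the lists were chosen with earlier results of these data known. By rule, values per library are given for members past an absolute log2 fold change of 1, members whose call changed without Vehicle replicate 2 and the 8 members with the highest mean. Those of other genes, and the promoters of *Bst2* and *Irf1*, were chosen after their values were seen, as were edgeR and the filtered fit with 1 library left out. Symbols and coordinates came from GENCODE M21 (GRCm38), which matched 24008 identifiers, and promoters from RefSeq. Shared sequence was counted as 31-base words that transcripts of other genes also hold. Python 3.11.15 with pandas 2.3.3 and matplotlib 3.10.9 was used for the rest. Intervals and the floor of 3 reads cover counting error only. The result of 1 pathway gene is not reported here.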

Additional observations from a re-analysis of the deposited data

How the results depend on the processing

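With no library left out, 24 members examined singly kept their direction under every alternative tried, namely pseudocounts of 0.1 and 0.01, a mean of at least 1 or 10, upper-quartile, same-total and quantile scaling, no variance trend, a robust prior variance, the replicate block, and edgeR or DESeq2 with and without the block. Of those 336 values, 300 also stayed on the same side of the threshold, 33 lost it and 3, all of *Ifit3b*, gained it. Members called lower were 3 without a variance trend and 9 with DESeq2 and the block. Members called higher were 3 with a pseudocount of 0.01, 1 without a trend and 2 with DESeq2 and the block, and in these 3 fits *Oas3* kept a log2 fold change over 1 but not its call, which leaves 0 members called higher beyond 1. By edgeR 5 members were lower beyond a log2 fold change of -1, the others being *Ifit3* and *Ifit3b*. *Ifit3* was not called by DESeq2 (adjusted p = 0.17), and *Ifitm3* not after quantile scaling (0.02, adjusted p = 0.79). Over all genes, 751 were lower and 919 higher without a trend and 1254 lower with DESeq2 and the block, while same-total scaling gave 2656 lower and 1778 higher at a median of -0.05, against 2075 lower and 2149 higher on the deposited scale. Pathway genes without a trend were 0 lower and 1 higher. Causes were not tested.

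The replicate block in limma gave 14 members lower and 5 higher, and 2207 and 2274 genes, so it did not move the member counts. In edgeR with the block these were 17 and 5. As a check of pairing, deviations from the group means over 13880 genes correlated at -0.021, 0.014 and 0.021 between libraries of the same number, and 2 of 6 libraries correlated best with their own number, so the numbers were not used as pairs.

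When libraries were left out singly, the fit over all genes gave 4 to 9 members lower and 1 to 2 higher, 1 to 4 lower and 0 higher beyond 1 on the log2 scale, 988 to 1259 genes lower and 1210 to 1484 higher, 0 to 1 pathway genes lower and 2 to 4 higher, and a member median of -0.26 to 0.018. Its prior degrees of freedom went from 21.1 to 1.68 without Vehicle replicate 2. Over edgeR and the filtered fit the ranges were 10 to 17 members lower, 2 to 5 higher, 3 to 5 and 0 to 1 beyond 1, 2 to 4 pathway genes lower, 4 to 6 higher, 1653 to 2118 genes lower and 1827 to 2237 higher, and a median of -0.275 to 0.005. Without Vehicle replicate 2 the median was 0.018 over all genes, 0.002 with the filter and 0.005 by edgeR. The sign turned without that library for *Ifit1* (range -0.595 to 0.424, edgeR 0.405), *Mx1* (-0.605 to 0.248, edgeR 0.285), *Mx2* (-0.975 to 0.18, edgeR 0.255) and *Usp18* (-0.686 to 0.172, edgeR 0.178), and for *Mx1* also without Corticosterone replicate 2 (0.194). Leaving out 1 library leaves 2 in a group, and a member with few reads, such as *Gbp10*, *Mx2* or *Oas3*, is limited by its depth.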
